A study of Mus musculus with 24 samples.

Results

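The members described here are the probe sets for genes of respiratory complex I on an Affymetrix mouse array, each probe set being a group of short probes designed to detect 1 gene. They were chosen by name: a probe set was taken when the platform annotation gave it 1 gene symbol and that symbol began with Nduf. This gave 88 of 45037 probe sets, for 44 of 18193 genes, and 80 of them, for 43 genes, passed the low-value filter and were tested. The 8 that did not pass include the single probe set for Ndufb4, and the others belong to Ndufa3, Ndufa12, Ndufab1, Ndufb9 and Ndufs4, genes that other probe sets covered. A further 10 probe sets with an Nduf symbol among several symbols were not taken.

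RNA came from the livers of 24 female mice of strain NMR-1, 8 weeks old at the start, 6 to a diet, which ate their diet for 2 weeks. On the chimpanzee diet mice ate what captive chimpanzees were given (yogurt, fruit and vegetables), the cafeteria diet (HumanCafe in the labels) was cooked food from a canteen, the fast food diet came from 1 fast food chain, and the pellet diet was standard mouse chow, the food the mice had before the experiment. The cafeteria and fast food mice are called human diets where they are pooled, as 12 mice. The samples were processed in 2 batches, each with 3 mice of every diet, and the labels name no other treatment and no altered gene.

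Complex I, the NADH:ubiquinone oxidoreductase, takes electrons from NADH, passes them along iron-sulfur clusters to ubiquinone and pumps protons across the inner mitochondrial membrane. It is L-shaped: a matrix arm holds the N module, where NADH is oxidised, and the Q module, where ubiquinone is reduced, while a membrane arm with proximal and distal parts carries the proton pumps. Conserved core subunits do the chemistry, accessory subunits surround them, and assembly factors help to build the complex without remaining in it. In the liver the complex oxidises the NADH made from fatty acids, amino acids and sugars.

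Levels are given as log2 signal and differences as log2 units, with the linear fold beside the main ones. A probe set is called when limma's adjusted p (Benjamini-Hochberg over all 25544 probe sets tested) was below 0.05. Levels of different probe sets are not set against each other, since each probe set has its own brightness. In whole liver, fewer cells of a type and less RNA per cell cannot be told apart.

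The arrays differed in signal range: the 90th percentile of an array lay between 5.66 and 6.61 on the log2 scale, with a mean of 6.50 in batch 1 and 6.04 in batch 2. In batch 2 the complex I probe sets were lower than in batch 1 by a median of 0.17, against 0.11 over all probe sets tested, and batch was a term of the fits reported here unless stated otherwise. Fast food batch 2 replicate 2 was the lowest of its diet in 71 of the 80 members and cafeteria batch 2 replicate 3 in 50, and both were among the 4 arrays of narrowest range. The others of these were chimpanzee batch 2 replicate 1 and replicate 2 (90th percentiles 5.80 and 5.87), the lowest of their diet in 17 and 28 members. The difference between the 3′ and 5′ probe sets for beta-actin, a measure of RNA integrity, averaged 1.08 on the chimpanzee diet, 0.85 on human diets and 0.75 on pellets. Chimpanzee mice differed from human-diet mice (exact permutation test within batches, p = 0.000992, adjusted p = 0.00794 over 8 tests) and from pellet mice (exact p = 0.005, adjusted p = 0.02). Defining hepatocyte markers were bright in every diet, with a summed log2 level between 14.28 and 14.66. None of the 3 measured adipocyte markers passed the filter.

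**Figure D1:**
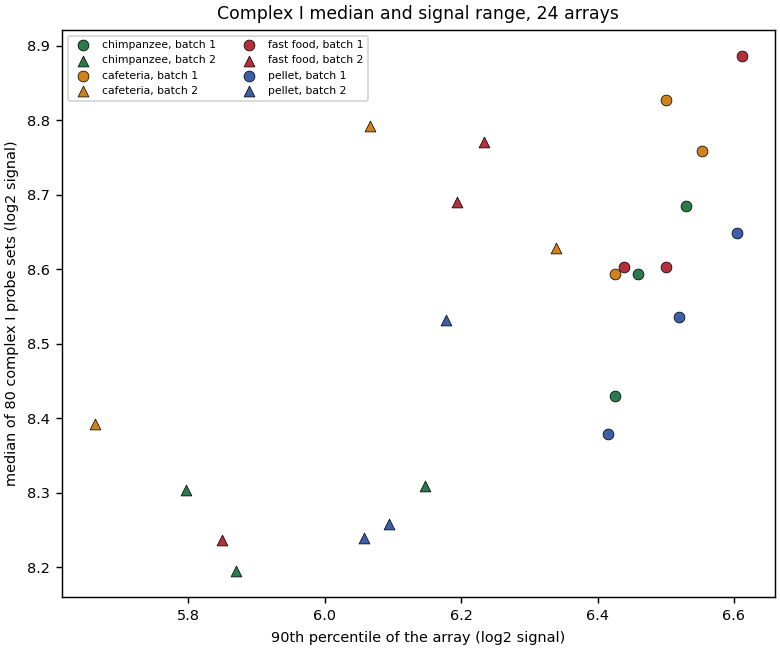
Median log2 signal of all 88 complex I probe sets (y), the 8 below the filter included, against the 90th percentile of log2 signal of the whole array (x). The axis label gives 80. Each point is 1 mouse, coloured by diet, with circles for batch 1 and triangles for batch 2. Batch 2 arrays lie to the left, between 5.66 and 6.34, and within a batch the cafeteria and fast food points lie mostly above the chimpanzee and pellet points.

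Across the 4 diets, 12 of the 80 complex I probe sets, for 11 genes, were called by the moderated F test, against 7.22% of all probe sets tested. Assembly factors made up 7 of these 12: Ndufaf1, Ndufaf2, Ndufaf3, Ndufaf6, Ndufaf7 and both probe sets for Ndufaf4 were called, which is 7 of the 10 assembly factor probe sets. The other 5 were Ndufs7 of the Q module (1451312_at), Ndufs4 and Ndufa7 (1436567_a_at) of the matrix arm, and Ndufb3 and Ndufb10 of the distal membrane arm. None of the 7 N module probe sets was called (2 had an unadjusted p below 0.05), and none of the 14 of the proximal membrane arm (4 below 0.05). Over the family 37 of 80 had an unadjusted p below 0.05, against 19.2% of all tested. Over the 80 probe sets the chimpanzee mean was the lowest of the 4 diet means in 48 and the pellet mean in 27. The cafeteria mean was the highest in 39 and the fast food mean in 34. The count was 7 without cafeteria batch 1 replicate 2 or pellet batch 2 replicate 2, 22 without cafeteria batch 2 replicate 3 and 31 without fast food batch 2 replicate 2. It was 4 with the beta-actin difference as a covariate. Of all probe sets tested 6.37%, 5.98%, 10.2% and 9.24% were called without these arrays in turn, and 2.9% with the covariate.

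**Figure D2:**
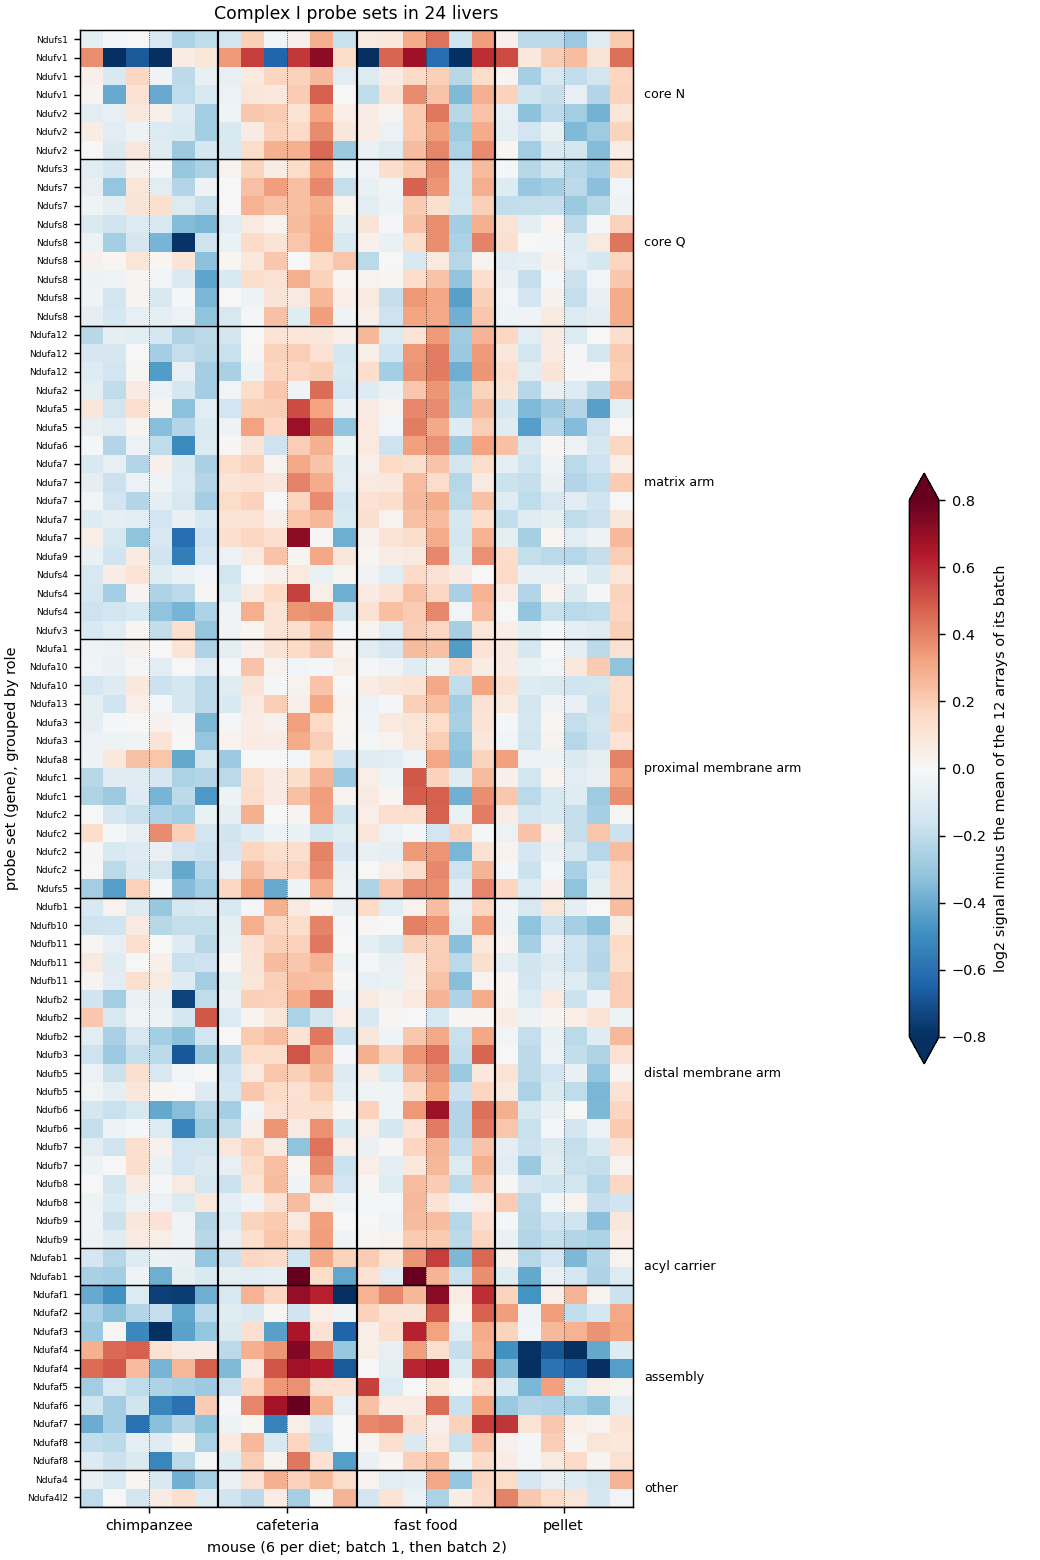
Heat map of the 80 complex I probe sets (rows, labelled by gene and grouped by role) in 24 mice (columns, 6 per diet, batch 1 before batch 2). Colour is log2 signal minus the mean of that probe set over the 12 arrays of its batch, red above and blue below, saturating at 0.8. Most rows are redder in cafeteria and fast food columns, the second to last fast food column apart, and both Ndufaf4 rows are mostly blue on pellets.

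Ndufaf4 was the member with the largest differences between diets, and it was lowest on pellets. It is an assembly factor that acts with Ndufaf3 on early intermediates of the complex. Its 250 bases before the transcription start are printed because they hold, at 113 to 104 bases before the start, overlapping copies on both strands of the NRF1 core letters GCATGCGC (capitals). NRF1 is a transcription factor known for its binding at many respiratory chain genes. The promoter of Ndufaf7, which was lowest on the chimpanzee diet, holds none of the letters searched and stands beside it. Both are from RefSeq, build GRCm38.p6, plus strand, at chr4:24897833-24898082 and chr17:78936885-78937134, and are written 5′ to 3′.
Ndufaf4: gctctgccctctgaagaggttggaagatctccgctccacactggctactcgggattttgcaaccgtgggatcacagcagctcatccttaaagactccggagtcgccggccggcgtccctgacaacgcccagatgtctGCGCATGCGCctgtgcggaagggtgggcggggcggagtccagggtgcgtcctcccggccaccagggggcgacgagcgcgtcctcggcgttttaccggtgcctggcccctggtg
Ndufaf7: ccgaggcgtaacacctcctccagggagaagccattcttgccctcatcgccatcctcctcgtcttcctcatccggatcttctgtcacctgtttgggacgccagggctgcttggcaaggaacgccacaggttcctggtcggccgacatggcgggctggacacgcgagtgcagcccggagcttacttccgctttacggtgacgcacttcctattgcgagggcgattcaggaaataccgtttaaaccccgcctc

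The promoter table held 39 of the 44 member genes. In windows of 250 bases before to 50 after the start, on either strand, GCATGCGC was found in 4 of these 39 (10.3%), Ndufa6, Ndufa8, Ndufaf4 and Ndufaf5, against 3.05% of the 27025 genes in the table. CCGGAAG, the core of GABPA sites, was in 6 (15.4% against 9.93%), and AAGGTCA, the core letters of sites for estrogen-related receptors, in 3 (7.69% against 5.38%). AAGATGGC, read by YY1, was in 7 (17.9% against 3.19%), Ndufs4 among them. Of the 10 genes with a promoter that were called across the 4 diets, 1 held the NRF1 letters, 1 the GABPA letters, 2 the YY1 letters and none AAGGTCA. A match describes these letters and is not a measured binding site.

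The first Ndufaf4 probe set (1427997_at) read 5.79, 6.34 and 6.59 on pellets (lowest, median and highest of 6 mice). On the chimpanzee diet it read 6.67, 7.04 and 7.55, on the cafeteria diet 6.30, 7.18 and 7.42, and on fast food 6.42, 6.94 and 7.41. No chimpanzee mouse was as low as any pellet mouse, while 1 cafeteria and 1 fast food mouse, both of batch 2, fell within the pellet range. The second probe set (1435333_at) read 3.52, 4.39 and 5.41 on pellets against 4.09, 5.48 and 6.25 on the chimpanzee diet, 3.79, 5.27 and 6.26 on the cafeteria diet and 4.36, 5.41 and 6.37 on fast food. Its ranges overlapped between diets, and the batch 2 mice were below the batch 1 mice on every diet. Human diets exceeded pellets by 0.70 ± 0.14 (SE, 1.62-fold, adjusted p = 0.00475) and 0.87 ± 0.19 (1.83-fold, adjusted p = 0.00902) at the 2 probe sets. The chimpanzee diet exceeded pellets by 0.79 ± 0.15 (1.73-fold, adjusted p = 0.00158) and 0.93 ± 0.21 (1.90-fold, adjusted p = 0.0068). Human diets minus chimpanzee gave -0.09 ± 0.13 and -0.06 ± 0.20, neither called (adjusted p = 0.836 and 0.944). Both probe sets kept their calls against pellets when any 1 array was left out. With the beta-actin difference as a covariate the second probe set lost its call in chimpanzee against pellet (0.92, adjusted p = 0.218).

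Ndufaf7, a methyltransferase that acts in assembly, showed another order. It read 4.36, 4.54 and 4.68 on the chimpanzee diet, 4.42, 4.88 and 4.97 on the cafeteria diet, 4.89, 5.21 and 5.41 on fast food and 4.88, 5.01 and 5.52 on pellets. All 6 chimpanzee mice were below all 6 pellet mice and all 6 fast food mice, and the cafeteria range overlapped each of the others. Chimpanzee was lower than pellet by -0.54 ± 0.11 (1.46-fold, adjusted p = 0.00232), with -0.72 in batch 1 and -0.36 in batch 2. Across the 4 diets it had the smallest adjusted p of the family, 0.00127, and it kept both calls when any 1 array was left out. Cafeteria minus fast food was -0.39 ± 0.11, not called (unadjusted p = 0.00165, adjusted p = 0.53).

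**Figure D3:**
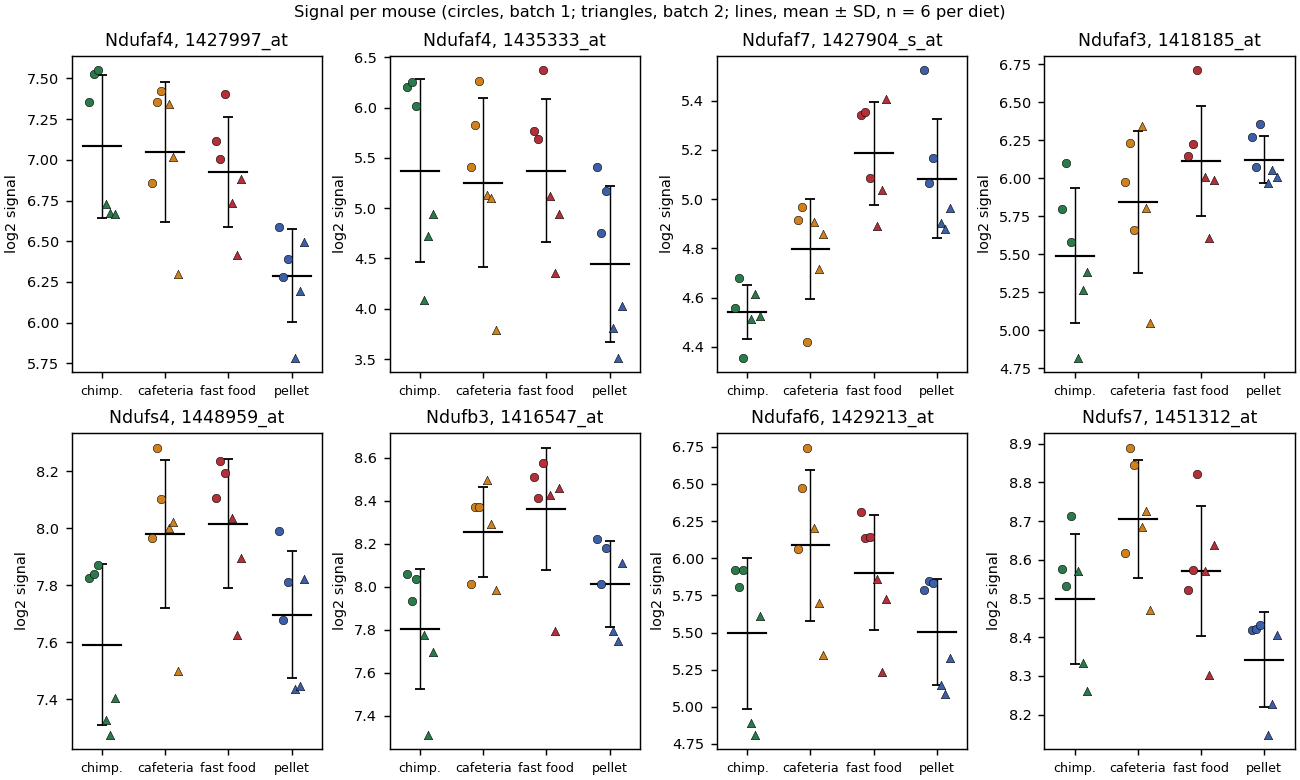
Log2 signal of 8 complex I probe sets (7 genes) in each mouse by diet (circles, batch 1; triangles, batch 2), with the mean and SD of 6 mice. Ndufaf4 is lowest on pellets (means 6.29 and 4.45), Ndufaf7 (4.54) and Ndufaf3 (5.49) are lowest on the chimpanzee diet, and Ndufs4 and Ndufb3 are higher on both human diets than on the chimpanzee diet.

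The chimpanzee diet against pellets asks how far the control diets differ from each other. In this comparison the called members were all assembly factors, and they went both ways. Of the 80 probe sets 5 were called, against 8.69% of all tested: 2 higher on the chimpanzee diet, both Ndufaf4 (2.56% of all tested were called higher), and 3 lower, Ndufaf7, Ndufaf3 and Ndufaf2 (6.14% called lower). Ndufaf3, the partner of Ndufaf4, read 4.82, 5.48 and 6.10 on the chimpanzee diet and 5.97, 6.06 and 6.36 on pellets. Only the highest chimpanzee mouse reached the pellet range. The difference was -0.63 ± 0.17 (1.55-fold, adjusted p = 0.019), opposite in sign to that of Ndufaf4. Ndufaf2, a relative of the subunit Ndufa12 that acts late in assembly, read 4.95, 5.07 and 5.31 against 5.27, 5.49 and 5.80. Chimpanzee and pellet mice overlapped only narrowly, and the difference was -0.38 ± 0.10 (1.30-fold, adjusted p = 0.0191).

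Other assembly factors were not called in chimpanzee against pellet. Ndufaf1, which acts on the membrane arm, gave -0.46 ± 0.20 (adjusted p = 0.185), and Ndufaf6 -0.01 ± 0.14 (adjusted p = 0.982). Ndufaf8, the partner of Ndufaf5, gave -0.20 and -0.26 at its 2 probe sets (adjusted p = 0.137 and 0.16). None of the probe sets for core subunits, accessory subunits or the acyl carrier protein was called, and 4 of them had an unadjusted p below 0.05. Over the family 12 of 80 did, against 20.6% of all probe sets tested. The median over all 80 was -0.05, with 50 below 0, against 0.001 over all probe sets tested. The median turned to 0.005 after cyclic loess and 0.02 after quantile normalization, 0.008 with the 90th percentile and 0.02 with the beta-actin difference as a covariate.

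After cyclic loess or quantile normalization of the deposited values 12 members were called in chimpanzee against pellet, 9 higher and 3 lower. This was 15% of members, against 12.4% and 11.2% of all probe sets tested. With the beta-actin difference as a covariate only Ndufaf4 (1427997_at) kept its call, and Ndufaf7 (-0.40, adjusted p = 0.324), Ndufaf3 (-0.57, adjusted p = 0.407) and Ndufaf2 (-0.19, adjusted p = 0.758) lost it. Ndufaf3 lost its call without chimpanzee batch 2 replicate 1 (adjusted p = 0.0596). Ndufaf2 lost it without pellet batch 1 replicate 1, batch 1 replicate 3 or batch 2 replicate 3 (adjusted p up to 0.0631). Of 7 probe sets for Kupffer cell markers, the resident macrophages of the liver, 2 were called, against 8.69% of all tested. They were Clec4f (-0.78 ± 0.23, adjusted p = 0.037) and Cd68 (-0.68 ± 0.13, adjusted p = 0.00167), both lower on the chimpanzee diet. Of the 7 differences 5 were below 0 and 2 above. An unadjusted p below 0.05 was found for 6 (20.6% of all tested), and these were not all lower. The summed log2 level of the 6 Kupffer marker genes, all above the filter, was 7.78 to 9.12 in chimpanzee and 8.79 to 9.69 in pellet mice. The part of these markers and of the beta-actin difference in the results was not tested.

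Human diets against the chimpanzee diet is the comparison at the centre of the study, whether foods typical of the 2 species leave different expression in a mouse liver. Here 2 of the 80 complex I probe sets were called, both higher on human diets: Ndufs4 and Ndufb3. Of all probe sets tested 0.767% were called and 0.564% were called higher. Of the 80 differences 75 were above 0, with a median of 0.21 (0.0006 over all tested), and both Ndufaf4 probe sets were among the 5 below 0. An unadjusted p below 0.05 was found for 42 members, against 13.2% of all tested. The sizes were small, between -0.13 and 0.73, and most single probe sets did not pass adjustment. After cyclic loess or quantile normalization of the deposited values the median over members fell to 0.12, with 69 and 68 of 80 above 0. It was 0.16 with the 90th percentile as a covariate.

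Ndufs4, an accessory subunit of the matrix arm next to the N module, read 7.28, 7.61 and 7.87 on the chimpanzee diet (1448959_at). It read 7.50, 8.01 and 8.28 on the cafeteria diet and 7.62, 8.07 and 8.23 on fast food. All human-diet mice were above the chimpanzee range apart from 1 cafeteria and 1 fast food mouse of batch 2. Human minus chimpanzee was 0.41 ± 0.08 (1.33-fold, adjusted p = 0.0207), with 0.30 in batch 1 and 0.51 in batch 2. The 2 other Ndufs4 probe sets tested lay near the filter level and gave 0.03 and 0.22, not called.

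Ndufb3, an accessory subunit of the distal membrane arm, read 7.31, 7.86 and 8.06 on the chimpanzee diet, 7.98, 8.33 and 8.50 on the cafeteria diet and 7.80, 8.44 and 8.58 on fast food. Of the 12 human-diet mice 9 were above every chimpanzee mouse, and the lowest cafeteria and fast food mice, both of batch 2, were within the chimpanzee range. The difference was 0.51 ± 0.11 (1.42-fold, adjusted p = 0.0346), with 0.37 and 0.65 in the 2 batches.

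Next came members that did not pass. Ndufaf5, a hydroxylase that modifies Ndufs7 and whose probe set lay near the filter level, gave 0.37 ± 0.09 (adjusted p = 0.0577), and Ndufc1 of the proximal membrane arm (1448284_a_at) gave 0.43 ± 0.11 (adjusted p = 0.0632). The largest difference of the family was that of Ndufaf1, 0.73 ± 0.19 (adjusted p = 0.0698), whose 6 chimpanzee mice spread from 4.73 to 6.11. By role the medians were 0.21 in the N module, 0.17 in the Q module, 0.23 in the rest of the matrix arm, 0.16 in the proximal and 0.13 in the distal membrane arm, and 0.37 in assembly factors. Within batch 1 the median over members was 0.13 with 73 of 80 above 0, and within batch 2 it was 0.28 with 77 of 80 above 0.

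The count of calls against the chimpanzee diet depended on single arrays. It was 0 without chimpanzee batch 1 replicate 2, batch 2 replicate 1 or batch 2 replicate 2, where Ndufs4 reached an adjusted p of up to 0.0716 and Ndufb3 of up to 0.114. Without these 3 arrays in turn 0.305%, 0.321% and 0.376% of all probe sets tested were called. The count was 14 without cafeteria batch 2 replicate 3 (2.98% of all tested called) and 13 without fast food batch 2 replicate 2 (1.85%). Ndufb3 also lost its call without the other chimpanzee arrays and without cafeteria batch 1 replicate 2, batch 2 replicate 2 or fast food batch 1 replicate 1, batch 1 replicate 3, batch 2 replicate 1 or batch 2 replicate 3. With the beta-actin difference as a covariate neither gene was called (Ndufs4 0.30, adjusted p = 0.583, and Ndufb3 0.36, adjusted p = 0.687), while the median over members was 0.19. The part of the beta-actin difference in the result was not tested.

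**Figure D4:**
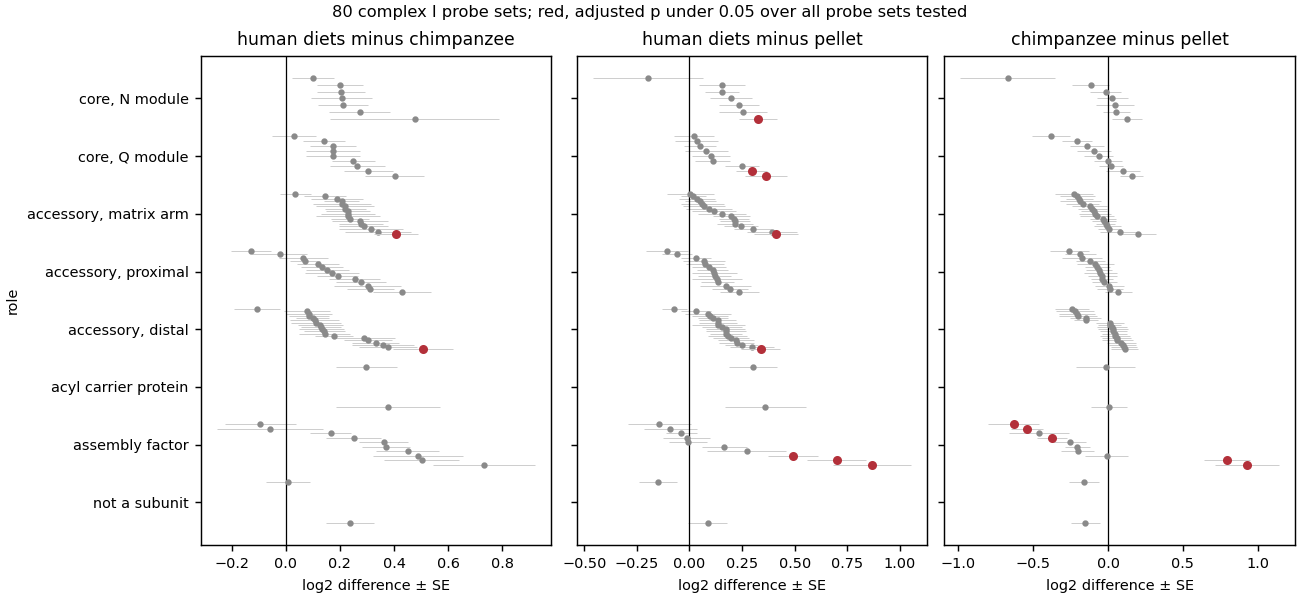
Log2 difference with its SE for each of the 80 complex I probe sets, grouped by role, in human diets minus chimpanzee, human diets minus pellet and chimpanzee minus pellet. Red points were called. Subunits lie mostly to the right of 0 in the first 2 panels (75 and 70 of 80 members above 0), and in the third the red points are assembly factors on both sides.

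Human diets against pellets gave 8 called probe sets for 6 genes, all higher on human diets, against 4.03% of all tested (1.68% called higher). Apart from both Ndufaf4 probe sets they were the assembly factor Ndufaf6, the core subunits Ndufs7 (2 probe sets) and Ndufv2, and the accessory subunits Ndufa5 and Ndufb10. The median over the 80 members was 0.14 (-0.003 over all tested), 70 were above 0 and 27 had an unadjusted p below 0.05, against 13.5% of all tested. Within batches the median was 0.14 in batch 1 and 0.16 in batch 2. This comparison shares its human-diet mice with the one above, and chimpanzee against pellet shares the pellet mice.

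Ndufs7 carries the last iron-sulfur cluster before ubiquinone. Its probe set 1451312_at read 8.15, 8.41 and 8.43 on pellets, 8.47, 8.71 and 8.89 on the cafeteria diet and 8.30, 8.57 and 8.82 on fast food. All cafeteria mice were above all pellet mice, and 1 fast food mouse of batch 2 was not. Human minus pellet was 0.30 ± 0.07 (1.23-fold, adjusted p = 0.0242) there and 0.36 ± 0.10 (1.29-fold, adjusted p = 0.0453) at 1424313_a_at. Ndufv2, an iron-sulfur subunit of the N module, read 8.83, 9.15 and 9.36 on pellets, 9.26, 9.46 and 9.64 on the cafeteria diet and 8.99, 9.46 and 9.63 on fast food (1428179_at). The ranges overlapped, and the difference was 0.33 ± 0.09 (1.25-fold, adjusted p = 0.0434). Its 2 other probe sets gave 0.23 and 0.25, not called.

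Ndufaf6, which acts early on the membrane arm, read 5.09, 5.56 and 5.84 on pellets and 5.24, 6.10 and 6.74 in the 12 human-diet mice. The highest pellet mice lay within the human-diet range. Human minus pellet was 0.49 ± 0.12 (1.41-fold, adjusted p = 0.0221), equal in both batches at 0.49. Ndufaf6 on the chimpanzee diet had a mean of 5.49, next to 5.50 on pellets, and human minus chimpanzee was 0.50 ± 0.14, not called (adjusted p = 0.0975).

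Ndufa5, an accessory subunit of the matrix arm, read 8.06, 8.27 and 8.43 on pellets, 8.42, 8.77 and 9.01 on the cafeteria diet and 8.22, 8.69 and 8.96 on fast food (1417285_a_at). Only the lowest cafeteria and fast food mice touched the pellet range, and the difference was 0.41 ± 0.10 (1.33-fold, adjusted p = 0.0278). The other Ndufa5 probe set gave 0.39, not called (adjusted p = 0.074). Ndufb10, of the distal membrane arm, read 7.96, 8.23 and 8.44 on pellets, 8.27, 8.54 and 8.76 on the cafeteria diet and 8.20, 8.55 and 8.88 on fast food. The groups overlapped, with a difference of 0.34 ± 0.09 (1.26-fold, adjusted p = 0.041).

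Leaving out single arrays changed this count. It was 2 without pellet batch 1 replicate 3, batch 2 replicate 1 or batch 2 replicate 2, 3 without pellet batch 1 replicate 2 and 4 without pellet batch 1 replicate 1. It was 5 without cafeteria batch 1 replicate 2, batch 1 replicate 3 or batch 2 replicate 2, or fast food batch 1 replicate 3, batch 2 replicate 1 or batch 2 replicate 3. Without these cafeteria and fast food arrays in turn 3.32% to 4.06% of all tested were called. The count was 14 without fast food batch 2 replicate 2 (4.18% of all tested called) and 12 without cafeteria batch 2 replicate 3 (5.19%). Without each of the pellet arrays named above 2.64% to 3.23% of all tested were called. The calls of Ndufb10, Ndufv2 and Ndufs7 (1424313_a_at) were lost without 10, 13 and 12 of the 18 single arrays, with adjusted p up to 0.127, 0.14 and 0.127. Under cyclic loess, quantile normalization and the 90th percentile as a covariate 24, 26 and 21 members were called, each of them higher on human diets. Of all probe sets tested 7.37%, 6.98% and 8.83% were called in these settings. With the beta-actin difference as a covariate 3 were called (2.62% of all tested), and both Ndufaf4 probe sets kept their calls. Ndufaf6 (adjusted p = 0.0648), Ndufs7 (0.0734 and 0.122), Ndufa5 (0.0789), Ndufb10 (0.0752) and Ndufv2 (0.0617) lost theirs. With batch left out of the fit 1 member was called (1.55% of all tested).

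Cafeteria against fast food gave no called complex I probe set, against 0.0235% of all tested, and 3 with an unadjusted p below 0.05, against 5.16% of all tested. The methods' procedure as run here called 2, Ndufaf7 and Ndufaf2, against 1.19% of all tested. It took an unadjusted p below 0.01 from a contrast within all 24 arrays, without the Tukey test that the methods used for pairs of diets. The smallest p after Ndufaf7 was that of Ndufaf2, -0.29 ± 0.10 (adjusted p = 0.824), then Ndufs8 (1434212_at) with 0.19 (adjusted p = 0.932). Ndufs7 (1451312_at) came next with 0.13 ± 0.08. The median over members was 0.007, with 41 of 80 above 0.

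Besides Ndufs7 and Ndufv2 the core subunits with a probe set here were Ndufs1, Ndufv1, Ndufs3 and Ndufs8, and none of the 4 was called against either control diet. Ndufs1, an iron-sulfur subunit of the N module, gave 0.21 against chimpanzee and 0.20 against pellets. Ndufs3 of the Q module gave 0.25 in both. Ndufs8, another iron-sulfur subunit, had 6 probe sets between 0.03 and 0.40 against chimpanzee and between 0.02 and 0.11 against pellets. For Ndufv1, the subunit that binds NADH, 1 of 3 probe sets went against the others: 1415966_a_at gave -0.20 against pellets where the other two gave 0.15 each, with adjusted p between 0.438 and 0.895.

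Of 22 genes with several tested probe sets, the signs disagreed in 2 against chimpanzee (Ndufb2 and Ndufc2), in 3 against pellets (those and Ndufv1) and in 7 for chimpanzee minus pellet. The disagreeing Ndufb2 and Ndufc2 probe sets (1442658_at and 1431670_at) had levels near the filter, with diet means of 3.22 to 3.34 and 3.18 to 3.36. The member with the highest mean over 24 mice was Ndufa3 (1428464_at, 10.23) and the lowest was Ndufs4 (1459760_at, 2.39, not tested). The Ndufa3 probe set was not called in any comparison.

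Ndufab1, the mitochondrial acyl carrier protein that also serves fatty acid and lipoic acid synthesis, gave 0.30 against both control diets at its bright probe set (adjusted p = 0.243 and 0.206). Ndufa4 bears the family name but is by present knowledge a subunit of complex IV, and it gave 0.24 against chimpanzee and 0.09 against pellets, neither called. Ndufa4l2, its relative known as a hypoxia-induced gene, gave 0.008 and -0.15, neither called.

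Genes around the family were read from lists of pathway members. Of 69 tested probe sets for subunits of complexes II to V, none was called against chimpanzee. An unadjusted p below 0.05 was found there for 20, against 13.2% of all tested. Against pellets 1 was called (4.03% of all tested), Uqcrc1 of complex III (0.29 ± 0.08, adjusted p = 0.0421). The median over the 69 was 0.14 against chimpanzee and 0.15 against pellets, with 65 and 66 of 69 above 0, and 0.009 for chimpanzee minus pellet. Of 11 probe sets for complex I genes without the Nduf name, 1 (9.09%) was called in chimpanzee minus pellet, near the 8.69% of all tested. It was the assembly factor Acad9, lower by -0.63 ± 0.17 (adjusted p = 0.0191). ND5, the mitochondrially encoded proton-pumping subunit, gave 0.0004 against pellets and -0.20 ± 0.09 in chimpanzee minus pellet (adjusted p = 0.221). The 6 probe sets of electron carriers had a median of 0.27 against chimpanzee and 0.22 against pellets, none called in either. Of these 5 and 2 had an unadjusted p below 0.05, against 13.2% and 13.5% of all tested.

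Among 22 probe sets for regulators of mitochondrial biogenesis, 1 (4.55%) was called in chimpanzee minus pellet, below the 8.69% of all tested. It was Esrra, which encodes an estrogen-related receptor, higher by 0.34 ± 0.10 (adjusted p = 0.0389). None was called in human diets against chimpanzee or pellets (2 and 3 with an unadjusted p below 0.05, against 13.2% and 13.5% of all tested). Of 29 probe sets for mitochondrial content markers, 3 were called in human diets against pellets, against 4.03% of all tested. Tomm40, the channel of the outer membrane import machinery, was higher by 0.52 ± 0.14 (adjusted p = 0.0448). Both probe sets for citrate synthase, Cs, were lower, -0.59 ± 0.14 (adjusted p = 0.0221) and -0.54 ± 0.14 (adjusted p = 0.0321), while the median of the list was 0.10.

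**Figure D5:**
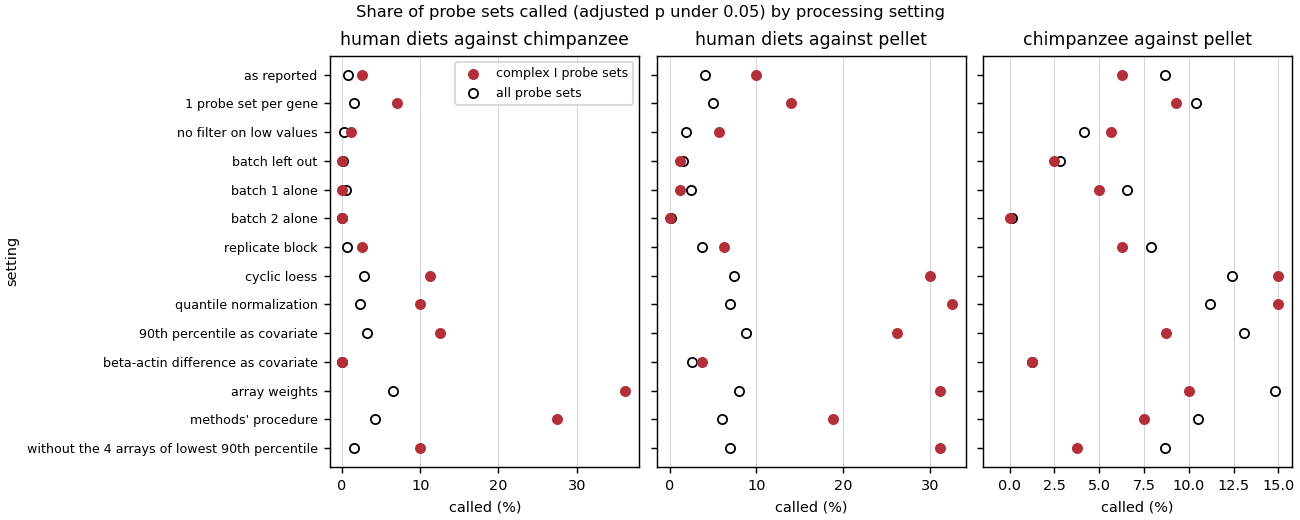
Percent of complex I probe sets (red) and of all probe sets (open) called at an adjusted p below 0.05 under each processing setting, in the 3 comparisons with a control diet. The methods' procedure is the exception, called at an unadjusted p below 0.01. In human diets against pellet the complex I share was 10% as reported (4.03% of all probe sets). It was 32.5% after quantile normalization (6.98%) and 31.2% with array weights (8.05%). In human diets against chimpanzee it was 2.5% as reported (0.767%), 10% after quantile normalization (2.35%) and 36.2% with array weights (6.49%). With the beta-actin difference as a covariate the complex I shares against pellet and chimpanzee were 3.75% and 0% (2.62% and 0.0587% of all probe sets). In batch 2 alone both were 0% (0.114% and 0% of all probe sets).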

How the data were processed

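Liver RNA of 24 mice was hybridised by the authors to Affymetrix arrays, 1 per mouse. The deposited values are log2 signals that, per the methods, the authors made with rma, which includes quantile normalization. The 24 columns did not share 1 distribution, so arrays were not rescaled further, and this was tried as an alternative. Of 45101 probe sets 64 were controls and were left out. A probe set was tested if 6 or more of the 24 arrays read above 3.147, the overall median without controls (25544 probe sets). Genes came from the platform annotation (34945 probe sets with 1 symbol, 932 with several, 9160 with none).

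Diet and batch were fitted with limma 3.58.1 in R 4.3.3 (lmFit, eBayes, two-sided, Benjamini-Hochberg over all probe sets tested), checked on simulated data. Human diets were compared with 1 control diet over the 18 mice involved, as in the methods. The other comparisons were contrasts within all 24. Members and lists were chosen with earlier results of these data known. Named were called members (up to 12 per comparison, or the 4 of smallest p), core subunits, genes whose probe sets disagree, the brightest and dimmest member, and members that are no complex I subunits. Other lists gave up to 3 called genes. Alternatives changed the filter, normalization, batch, covariates, weights, test and arrays. Each sample is 1 mouse, and the number of arrays limits the precision. Figures were drawn with matplotlib.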

Additional observations from a re-analysis of the deposited data

Results flagged for a closer look

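In 11 of 128 groups of 6 mice (32 probe sets, each on 4 diets) the highest or lowest mouse stood apart from the rest by Dixon's ratio, and chance alone picks out about 1 group in 20. The lowest fast food mouse, batch 2 replicate 2, stood apart in 7 of them. It read 7.80 for Ndufb3 with the next mouse at 8.41, 9.81 for Ndufa4 with the next at 10.23, and 8.61 for Ndufa7 (1436567_a_at) with the next at 9.05. It read 8.09 for Ndufs1 with the next at 8.58, and 8.99 for Ndufv2 (1428179_at) with the next at 9.44. For Ndufs8 it read 7.45 (1423908_at, next 7.93) and 7.64 (1434213_x_at, next 8.04).

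Cafeteria batch 2 replicate 3 read 4.55 for Ndufaf1, with the next cafeteria mouse at 6.10. Chimpanzee batch 2 replicate 3 read 5.28 for Ndufs8 (1434212_at), with the next at 5.60. For Ndufaf5, near the filter level, fast food batch 1 replicate 1 read 4.02 with the next at 3.46, and pellet batch 1 replicate 3 read 3.80 with the next at 3.35. The cause of these values was not tested.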

How the results depend on the processing

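Across 4 diets, human diets against chimpanzee, human diets against pellet and chimpanzee against pellet, 12, 2, 8 and 5 complex I probe sets were called. Of all probe sets tested 7.22%, 0.767%, 4.03% and 8.69% were called. In the same order the counts were 1, 0, 1 and 2 with batch left out of the fit, 5, 0, 1 and 4 in batch 1 alone, and 0 in each for batch 2 alone. The shares of all tested were 2.14%, 0.172%, 1.55% and 2.83% with batch left out. They were 4.27%, 0.556%, 2.44% and 6.56% in batch 1 alone, and at most 0.125% in batch 2 alone. The counts were 31, 9, 24 and 12 after cyclic loess, against 12.8%, 2.85%, 7.37% and 12.4% of all tested. After quantile normalization they were 31, 8, 26 and 12 (11.7%, 2.35%, 6.98% and 11.2%). They were 28, 10, 21 and 7 with the 90th percentile as a covariate (14.7%, 3.2%, 8.83% and 13.1%). With the beta-actin difference as a covariate they were 4, 0, 3 and 1 (2.9%, 0.0587%, 2.62% and 1.23%). Array weights gave 39, 29, 25 and 8 (16.7%, 6.49%, 8.05% and 14.8% of all tested). Leaving out the 4 arrays of narrowest range gave 26, 8, 25 and 3 (10.4%, 1.54%, 6.95% and 8.66%). No filter on low values gave 9, 1, 5 and 5 (3.39%, 0.284%, 1.88% and 4.16%). The methods' procedure as run here gave 18, 22, 15 and 6 (9.15%, 4.23%, 6.02% and 10.5%). It was a two-way model with an unadjusted p below 0.01 and the low-value filter kept, without the Tukey test. Probe sets with an interaction of diet and batch at p below 0.05 were left out, as in the methods. This left 24933 to 25016 probe sets, all 80 members among them. Human diets against chimpanzee as a contrast within all 24 arrays gave 10 (1.92% of all tested). Leaving out 1 array at a time gave 7 to 31, 0 to 14, 2 to 14 and 4 to 7. The shares of all tested moved too, over 5.28% to 10.2%, 0.305% to 2.98%, 2.64% to 5.19% and 5.98% to 10.8%. Every member called in human diets against either control was higher in each of these alternatives. Cafeteria against fast food gave 0 throughout, except 2 by the methods' procedure as run here (1.19% of all tested). No called difference of a named gene changed sign under these alternatives, but the median over members in chimpanzee against pellet did (-0.05 as reported, 0.02 after quantile normalization). Differences that were not called were not all followed. The cause of these changes was not tested.

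With the replicate block the counts were 10, 2, 5 and 5, against 6.34%, 0.619%, 3.74% and 7.91% of all tested. Ndufb10, Ndufv2 and Ndufs7 (1424313_a_at) lost their calls against pellets (adjusted p = 0.0673, 0.0637 and 0.0627). Mice of the same batch and number on other diets had a median r of 0.01 over 36 pairs (-0.64 to 0.42, 12 of them over 0.1). Pairs with other numbers had a median of -0.02 over 72 pairs. This check showed no pairing by number but cannot exclude it, since each deviation was taken from a mean of 3 mice. Per the methods littermates were spread evenly over the diet groups, and the labels do not name them.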
